A study of Bos taurus with 12 samples.

Results

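The corpus luteum of pregnant cows on day 18 of gestation (P18) was compared with that of pregnant cows on day 15 (P15), across genes and pathways. The samples were chosen by their titles, 4 cows per day, which made 8 of the 12 samples of the series. All were Japanese Black cows, pregnant after artificial insemination, with the insemination counted as the first day. The labels name no treatment, genotype or age. The other 4 samples (NP15) were of cyclic, nonpregnant cows at day 15, and their values are given only for comparison by eye. Each sample is the total RNA of 1 corpus luteum, labelled with Cy3 and hybridised to a 1-colour Agilent array of 60-base probes. The title of the series names the nuclear receptor PPARD and the enzyme CYP21A2. Nothing in the labels says which cells of the gland a sample held.

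The corpus luteum forms from the ovulated follicle and secretes progesterone, which keeps the uterus receptive to the embryo. Its large and small steroidogenic cells take up lipoprotein cholesterol, carry it into mitochondria and convert it to progesterone, within a dense capillary bed. In a cow without an embryo, prostaglandin F2alpha from the uterus ends the life of the gland. In a pregnant cow the elongating embryo secretes interferon tau around this stage, and the gland persists.

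A level is log2 of a probe's processed signal minus the log2 of its array's 75th percentile, so 0 is the array's 75th percentile and each unit up is a doubling of signal. A gene was tested when its probe was well above background on all 8 arrays. That left 9583 genes, 4952 of them with a symbol. A gene was called when limma's adjusted p was under 0.05, and every change is P18 minus P15. P18 lay alone on slide 2 and scan 2, while P15 and NP15 lay on slide 1 and scan 1. Day and slide therefore cannot be told apart in any value below. An NP15 value near P15 does not separate them either, since these groups share a slide. The arrays differed between the slides. Probes well above background made up 78.4% ± 2.44 (SD, n = 4) in P15 and 70.4% ± 2.19 in P18, and the negative control spots' net signal was 34.1 to 40.04 in P15 and 80.4 to 99.3 in P18. Arrays correlated across genes, which are not independent, at 0.977 to 0.990 within P15, 0.982 to 0.987 within P18 and 0.964 to 0.975 between them. On a principal component analysis the leading axis, with 43.1% of the variance, separated the days.

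Of the tested genes 3051 were called, 31.8% of all, 1386 higher in P18 (14.5%) and 1665 lower (17.4%). At least 2-fold changes were called for 429 genes (4.48%), 142 higher and 287 lower. Most calls were small. The median size of a called change was 0.60, and 1469 of the calls were changes of under 1.5 times. The groups did not overlap in 3297 genes (34.4%). The balance of directions depended on the scaling. Higher calls were 45.4% of all calls, but 34.6% with the 75th percentile taken over the probes above background on all 8 arrays (1080 higher, 2040 lower). They were 76.8% with median centring (2968 higher, 896 lower), which moved the median change of all genes from -0.01 to 0.21. Changes below are therefore read against the median of all genes. Counts of calls in a list are read against the shares over all genes, 14.5% higher and 17.4% lower. Among named genes without a call, the sign changed with at least 1 other scaling for ATP5F1A, ATP5F1B, CD2, CD247, CYP11A1, DCN, FDX1, FOXL2, FSHR, KDR, LUM, NDUFS1, NDUFV2, NR5A2, PGR, RGS5, STAR, TEK and UQCRC2.

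The change also moved with technical properties of the probes, and their part in the gene results below was not tested. The median change was -0.12 in the dimmest of 5 equal bins of genes by level and 0.11 in the brightest. It was 0.25 for the 318 genes whose probe had at most 30% GC and -0.10 for the 3453 with over 40% and up to 45%. It was -0.13 for the 50 genes in the first row of the array and 0.38 for the 43 in row 192, the last. Probes that hold AATAAA on the strand listed, the letters of the common polyadenylation signal, had a median of 0.11 over 1345 genes, against -0.04 for the other 8238.

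**Figure D1:**
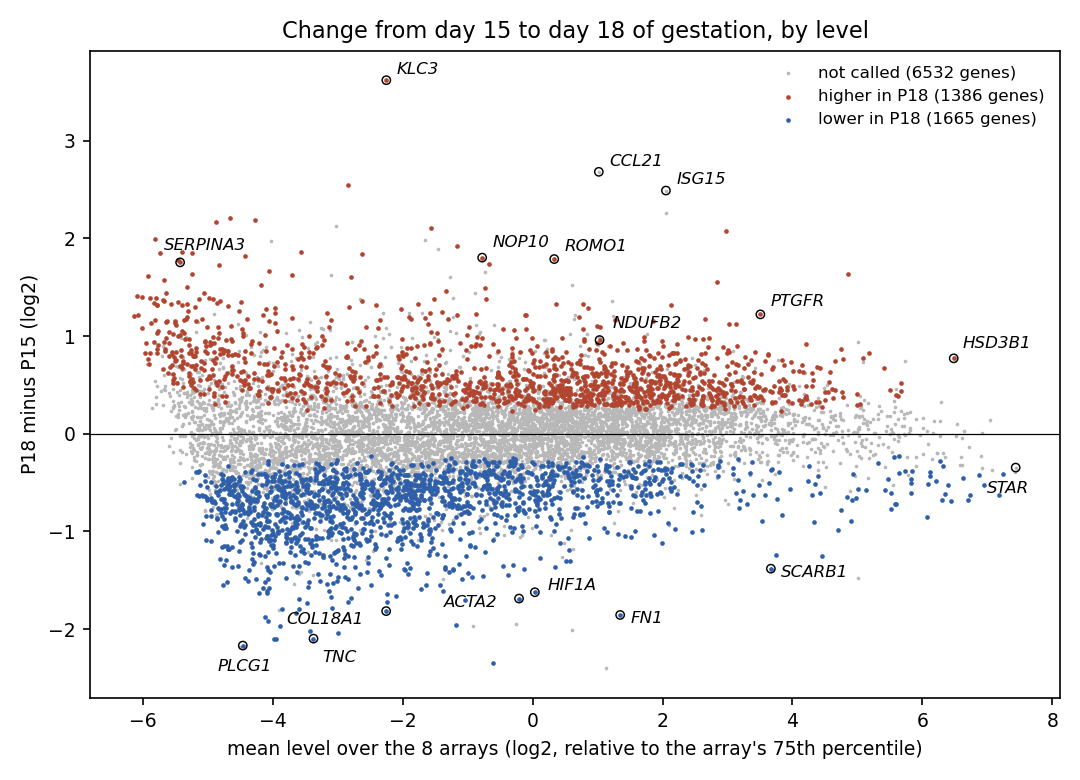
The change from P15 to P18 on the log2 scale against the mean level over the 8 arrays, 1 point per gene, with called genes in red (higher, 1386 genes) and blue (lower, 1665 genes) and circled points for named genes. KLC3 stands highest at 3.62, and CCL21 and ISG15 come next without a call.

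Named genes here are the 15 largest rises and falls among called genes with a symbol and no overlap, and members of the lists. The largest rise was that of KLC3, a kinesin light chain that links cargo to microtubule motors. Its levels were -3.88, -4.02, -4.10 and -4.25 in the 4 P15 cows and -0.46, -0.56, -0.31 and -0.43 in the 4 P18 cows. All P18 cows lay far above all P15 cows, a 12.3-fold rise (log2 3.62, SE 0.10, limma adjusted p = 1.98e-06). The NP15 cows were at -3.91 ± 0.27, near P15. ROMO1, a protein of the mitochondrial inner membrane that modulates reactive oxygen species, was at -0.48, -0.47, -0.62 and -0.68 in P15 and 1.2, 1.22, 1.35 and 1.14 in P18, a 3.45-fold rise (adjusted p = 7.49e-05). NOP10, part of the small nucleolar particles that make pseudouridine in ribosomal RNA, rose 3.49-fold from -1.68 ± 0.32 to 0.13 ± 0.16. The first 30 bases of the 60-base ROMO1 probe follow, on the strand the array lists and with AATAAA in capitals here and below, to show what a mitochondrial rise was measured with.
ROMO1: gtgtactatAATAAAgcaagtctttgagta

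The other 12 of the 15 largest rises were all in the dimmest bin of genes, below a mean level of -3.44. They were ZNF414 (1.85), the protease inhibitor SERPINA3 (1.75), the LIM cofactor LMO3 (1.67), the keratin KRT31 (1.64), the splicing protein HNRNPH1 (1.62) and the Ras exchange factor RASGRP4 (1.57). The others were the cyclic nucleotide channel CNGA3 (1.52), the actin-like ACTL7A (1.41), the cytokine LTA (1.40), the lipid carrier PLTP (1.39), ENPP6 (1.39) and PRR15L (1.38). SERPINA3 shows the pattern, at -6.13, -6.65, -6.22 and -6.22 in P15 and -4.47, -4.90, -4.08 and -4.74 in P18. The median negative control spot was at -9.45 ± 0.38 in P15 and -8.12 ± 0.33 in P18 on the same scale, below these genes on both slides but higher in P18. These 15 genes rose 2.60-fold to 12.3-fold, and 13 of them kept the call under every alternative that tested them. CNGA3 kept it in 22 of 25 alternatives and PRR15L in 19 of 25.

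Of the 15 largest falls 7 were in the dimmest bin, and 15 of 15 kept their call under every alternative that tested them. PLCG1, the phospholipase that growth factor receptors activate, fell 4.5-fold, from -3.47, -3.48, -3.36 and -3.20 in P15 to -5.96, -5.60, -5.63 and -5.0 in P18 (adjusted p = 0.000411). FN1, the matrix glycoprotein fibronectin, was the brightest of them, at 2.15, 1.99, 2.49 and 2.48 in P15 and 0.50, 0.00, 0.25 and 0.93 in P18. Every P18 cow was below every P15 cow, a 3.62-fold fall (log2 -1.86, SE 0.21, adjusted p = 0.000764), and NP15 was at 2.13 ± 0.79. By a second FN1 probe of another sequence the change was -1.85. The first 30 bases of both are shown because 2 different stretches gave nearly the same change.
FN1, probe of row 125: cgagagtaatatttccaaccagagaaacaa
FN1, probe of row 126: tgatagctcatccgtggttgtatcaggact

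Other falls among the 15 were in the matrix glycoprotein TNC (-2.10), the basement membrane collagen COL18A1 (-1.82), the collagen cross-linking enzyme LOX (-1.70) and the smooth muscle actin ACTA2 (-1.69). The transcription factors TCF21 (-1.96) and TBX3 (-1.69) were among them. The translation factor EIF4B fell by 2.10, the membrane repair protein DYSF by 1.83 and the folding enzyme FKBP9 by 1.68. Genes of DNA replication and repair and of mitosis were WRNIP1 (-2.02), RPA1 (-1.80) and KIF20A (-1.79). RASGRP3, an exchange factor of the same family as RASGRP4, fell by 1.78 while RASGRP4 rose. The 15 falls were 3.21-fold to 4.5-fold.

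**Figure D2:**
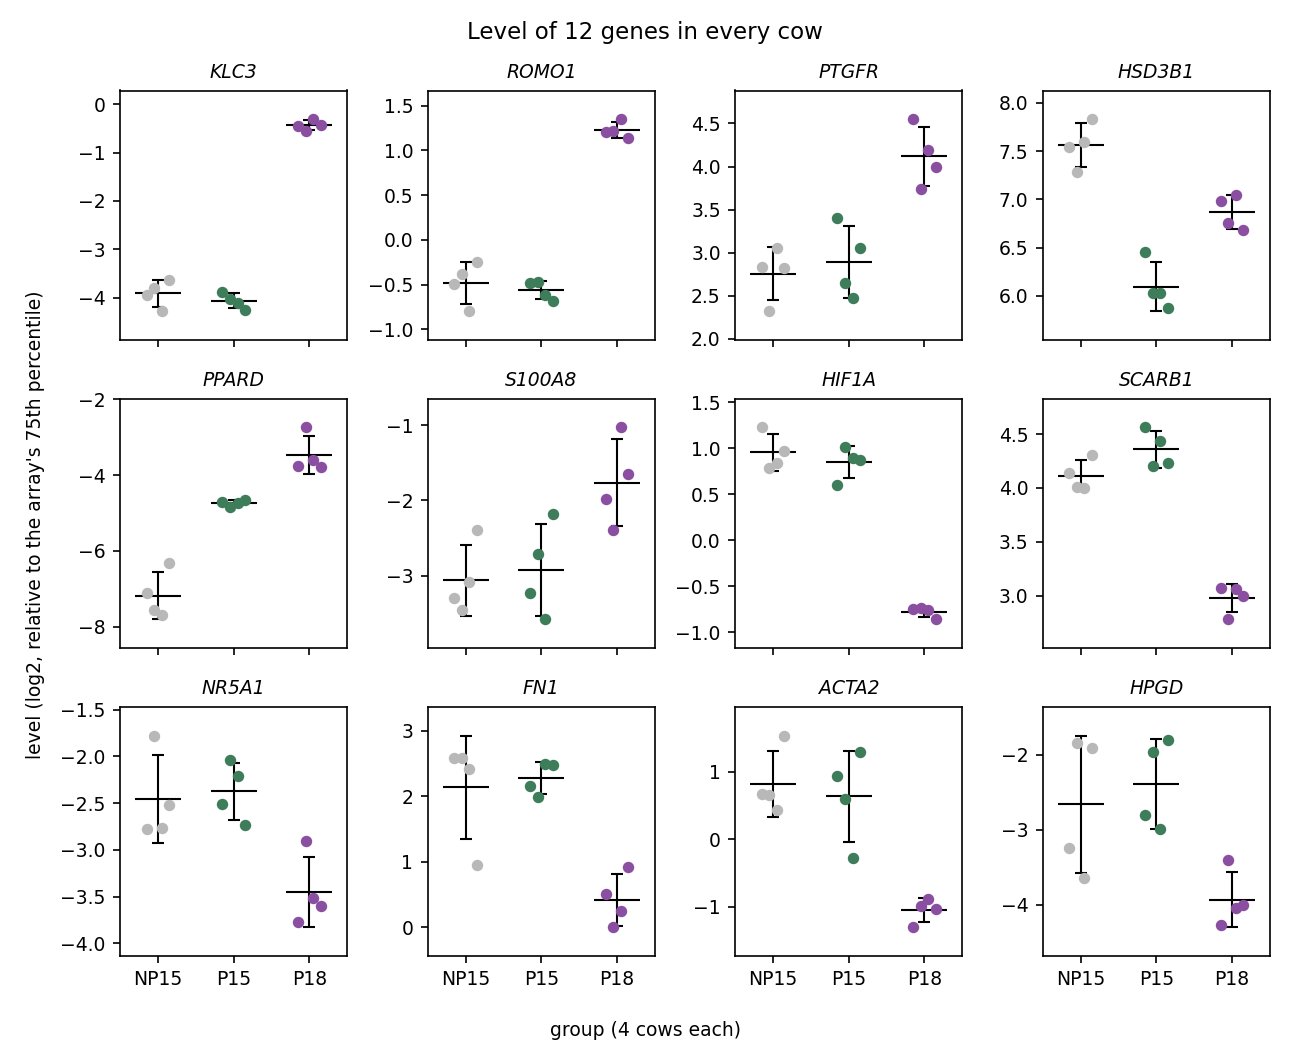
Levels on the log2 scale of 12 genes in every cow of NP15, P15 and P18, 4 points per group with the mean and SD in black. P18 lies apart from both day 15 groups for KLC3, ROMO1, HIF1A and SCARB1, while HSD3B1 is highest in NP15, where all 4 arrays were saturated. Both day 15 groups lay on slide 1 and P18 on slide 2.

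Few genes of progesterone synthesis were called. Of 27 tested genes of steroid synthesis 2 rose and 1 fell, against 14.5% called higher and 17.4% lower over all genes. The median change was 0.01, against -0.01 over all genes. STAR, which moves cholesterol into mitochondria and sets the pace of synthesis, was saturated on all 4 P15 arrays and on 0 P18 arrays. Its P15 signal, measured at 7.61 ± 0.22, is therefore a lower limit. As measured, P15 was 1.27-fold above P18, which was at 7.26 ± 0.11 (limma adjusted p = 0.0646, no call). With quantile normalization STAR was at 0.03. CYP11A1, which cuts the side chain of cholesterol, was at 6.16 ± 0.09 in P15 and 6.17 ± 0.16 in P18, a difference of 0.01 (SE 0.10) whose sign changed with the scaling. Its electron donor FDX1 differed by 0.00 (SE 0.14). HSD3B1, which makes progesterone from pregnenolone, was at 6.46, 6.03, 6.03 and 5.87 in P15 and 6.99, 6.76, 7.05 and 6.68 in P18. The days did not overlap, and it rose 1.71-fold (adjusted p = 0.00555). Its probe lies in row 192, the last row, whose genes had a median change of 0.38.

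The 1 fall was in a regulator of the pathway. NR5A1, the nuclear receptor that drives steroidogenic genes, was at -2.51, -2.04, -2.21 and -2.73 in P15 and -3.77, -2.91, -3.51 and -3.60 in P18, a 2.11-fold fall (adjusted p = 0.00704). NR5A2, its relative, was at -0.14 (adjusted p = 0.529). LHCGR, the receptor of luteinizing hormone, was at -0.50 (adjusted p = 0.229), with P15 cows at -1.32, -0.97, -1.15 and -2.16 and P18 cows at -2.32, -1.65, -2.20 and -1.43, which overlapped. HSD17B10, a mitochondrial dehydrogenase, rose by 0.46, and HSD17B4 was at 0.26 (adjusted p = 0.0558). CYP21A2, the adrenal enzyme that hydroxylates progesterone and is named in the title of the series, was at -3.29, -4.13, -3.84 and -3.85 in P15 and -5.29, -4.10, -3.32 and -3.50 in P18. The days overlapped (log2 -0.27, SE 0.41, adjusted p = 0.644), and without P18 replicate 1 the difference was 0.14. Its probe is in row 191, where the median change of rows 185 to 191 was 0.15.

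Cholesterol genes changed in both directions. SCARB1, the receptor that takes up cholesteryl ester from high density lipoprotein, was at 4.56, 4.20, 4.44 and 4.23 in P15 and 3.07, 2.78, 3.06 and 3.0 in P18. Every P18 cow was below every P15 cow, a 2.60-fold fall (log2 -1.38, SE 0.11, adjusted p = 0.000322), and NP15 was at 4.11 ± 0.15. ABCA1, which exports cholesterol from cells, rose by 1.09 (adjusted p = 0.0302). NPC2, which hands cholesterol out of lysosomes, rose by 0.64, and the synthesis enzymes MVD and PMVK rose by 0.52 and 0.43. APOA1, the main protein of high density lipoprotein, fell by 0.41, with 1 of its 4 P15 arrays saturated, and was at 0.0023 with quantile normalization. In all, 4 of 24 genes rose and 2 fell, against 14.5% and 17.4% over all genes. The median of the list was 0.00. The last 30 bases of the SCARB1 probe are shown for its low GC content, 23.3% over the whole probe. Genes whose probe had at most 30% GC had a median change of 0.25, and the part of GC here was not tested.
SCARB1: aaataattcacaattgaagtAATAAAcctt

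PPARD, a nuclear receptor for fatty acids, was at -4.72, -4.85, -4.74 and -4.67 in P15 and -3.75, -2.74, -3.59 and -3.79 in P18 by the probe of row 1, a 2.42-fold rise (adjusted p = 0.0039) with no overlap. NP15 was lower by this probe, at -7.18 ± 0.62. The other PPARD probe, in row 141, was well above background on 2 of 4 P15 arrays and 0 of 4 P18 arrays, at -7.28 ± 0.26 and -6.65 ± 0.51, so it gives no measured change. It was well above background on 4 of 4 NP15 arrays, at -6.74 ± 0.56, so by it NP15 was not below P15. The first 30 bases of both probes are shown because only 1 of the 2 carries the result. Their GC contents are 25% and 55%.
PPARD, probe of row 1: cagactgatggaactttaAATAAAtgggaa
PPARD, probe of row 141: tgccgtcaagttcaatgccctggaacttga

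Around PPARD, the list of PPAR and retinoid receptors with their lipid oxidation targets had 3 rises and 3 falls among 33 genes. The shares over all genes were 14.5% and 17.4%, and the median of the list was 0.04. The retinoic acid receptors RARG and RARA fell, by 1.44 and 0.62 on the log2 scale. RARG was at 0.45, 0.60, 0.40 and -0.06 in P15 and -0.69, -1.07, -0.80 and -1.81 in P18. ACAA2 and HADHB, enzymes of mitochondrial fatty acid oxidation, rose by 0.78 and 0.60. FABP3, a fatty acid carrier, fell by 0.83. PPARG was at 0.12 (adjusted p = 0.68) and RXRA, the partner of all PPARs, at 0.10 (adjusted p = 0.446).

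Prostaglandin genes changed at a receptor and at breakdown. PTGFR, the receptor of prostaglandin F2alpha on luteal cells, was at 3.40, 2.65, 2.48 and 3.05 in P15 and 4.55, 3.73, 4.19 and 4.0 in P18. The days did not overlap, a 2.33-fold rise (log2 1.22, SE 0.24, adjusted p = 0.00608), and NP15 was at 2.76 ± 0.31. HPGD, which inactivates prostaglandins, was at -2.80, -1.96, -2.99 and -1.80 in P15 and -4.27, -3.40, -4.04 and -4.0 in P18, a 2.91-fold fall (adjusted p = 0.00657). Every P18 cow was below every P15 cow, though NP15 was spread widely, at -2.66 ± 0.91. PTGER1, an E2 receptor of low level, rose by 0.88 and kept its call in 18 of 24 alternatives. PTGES3, a cochaperone with prostaglandin E synthase activity, fell by 0.53. SLCO2A1, the prostaglandin transporter, was at -0.49 (adjusted p = 0.109). Of 17 genes 2 rose and 2 fell, against 14.5% and 17.4% over all genes, and the median of the list was -0.15. The first 30 bases of the PTGFR probe are given as it is the only one for this receptor.
PTGFR: cttccaaagcctgtactaccaatgtcaagg

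Hormone receptors and ligands fell more often than they rose, 8 against 1 of 27 genes. Over all genes 17.4% were called lower and 14.5% higher. The median of the list was -0.17, and 0.05 under median centring. Over the alternatives 4 to 9 fell and 0 to 4 rose. The membrane progesterone receptor components PGRMC1 and PGRMC2 fell by 1.05 and 0.87, and the membrane progestin receptor PAQR7 by 0.82. PGRMC1 was at 2.48, 1.80, 1.79 and 2.13 in P15 and 1.24, 0.58, 0.83 and 1.33 in P18. PGR, the nuclear progesterone receptor, was at -0.17 without a call (adjusted p = 0.314). IGF2, a growth factor, was at 0.24, 0.22, 0.24 and 0.06 in P15 and -0.72, -0.63, -0.90 and -1.0 in P18, a 2.01-fold fall (adjusted p = 0.000634), and the insulin receptor INSR fell by 0.57. The glucocorticoid receptor NR3C1 fell by 0.71. INHA, the inhibin alpha subunit, fell 2.17-fold, from 2.39, 3.48, 2.55 and 1.76 to 1.64, 1.55, 1.26 and 1.27, and kept its call in 21 of 26 alternatives. ACVR1, an activin and BMP receptor, fell by 1.18, while ACVR1B rose by 0.34. The luteal peptide INSL3 was at 0.93 (adjusted p = 0.442), the prolactin receptor PRLR at 0.09 (adjusted p = 0.916) and oxytocin OXT at -0.42 (adjusted p = 0.202).

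Genes of the respiratory chain rose. Its nuclear genes encode complexes that carry electrons to oxygen in the mitochondrial inner membrane, and the ATP synthase that uses the proton gradient they build. Over complexes I, III, IV and the ATP synthase, 41 of 76 genes rose and 0 fell, against 14.5% called higher and 17.4% called lower over all genes. Their median change was 0.31. The mean level of these genes on each array was 2.99, 2.97, 2.95 and 2.89 in the P15 cows and 3.33, 3.28, 3.36 and 3.25 in the P18 cows, and the lowest P18 cow was above the highest P15 cow. The median of the list stayed positive under all 26 alternatives, from 0.18 with cyclic loess to 0.53 with median centring. Its count of rises ranged from 29 to 67 and its count of falls from 0 to 2.

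By complex, 22 of 38 genes of complex I, the NADH dehydrogenase, rose with a median of 0.33, 4 of 8 of complex III and cytochrome c with 0.31, 6 of 14 of complex IV, the cytochrome c oxidase, with 0.28, and 9 of 16 of the ATP synthase with 0.29. Falls in these 4 lists numbered 0, and 0 genes were lower at an unadjusted p under 0.05 in complexes I and III and the ATP synthase, against 1 in complex IV. Under alternatives, at most 1 fall appeared in complex I and 1 in complex IV. The largest change in complex I was that of the accessory subunit NDUFB2, whose probe's first 30 bases are shown as an example, at 0.61, 0.53, 0.51 and 0.56 in P15 and 1.59, 1.38, 1.61 and 1.47 in P18 (adjusted p = 0.000411). The accessory subunits NDUFB1, NDUFB3 and NDUFB5 rose by 0.84, 0.83 and 0.75. Of the core subunits, NDUFV1 rose by 0.45 and NDUFS3 by 0.45, while NDUFS1 and NDUFV2, at 0.05 and 0.14, were not called. Whether core and accessory subunits differ was not tested.
NDUFB2: gttttgactttgcacctatggtgattctga

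In complex III the iron-sulfur subunit UQCRFS1 rose by 0.92 and the small subunit UQCR11 by 0.73, as did UQCR10 by 0.36. Cytochrome c, CYCS, rose by 0.54, and the core protein UQCRC2 was at 0.01 (adjusted p = 0.979). In complex IV, COX7A2 was at 4.47, 4.37, 4.22 and 4.19 in P15 and 5.35, 5.15, 5.26 and 4.96 in P18, a rise of 0.87. COX8A rose by 0.75 and COX5A by 0.49. COX6A2, the isoform of heart and skeletal muscle, rose by 0.93 from a level of -6.06 ± 0.37, in the dimmest bin of genes. COX4I1 was at 0.19 (adjusted p = 0.095). In the ATP synthase, ATP5MC1, a c ring gene, rose by 0.70, the stalk subunits ATP5F1D and ATP5F1E by 0.68 and 0.69, and ATP5MG by 0.46. The catalytic beta and alpha subunits ATP5F1B and ATP5F1A were at 0.03 and 0.03, without calls.

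**Figure D3:**
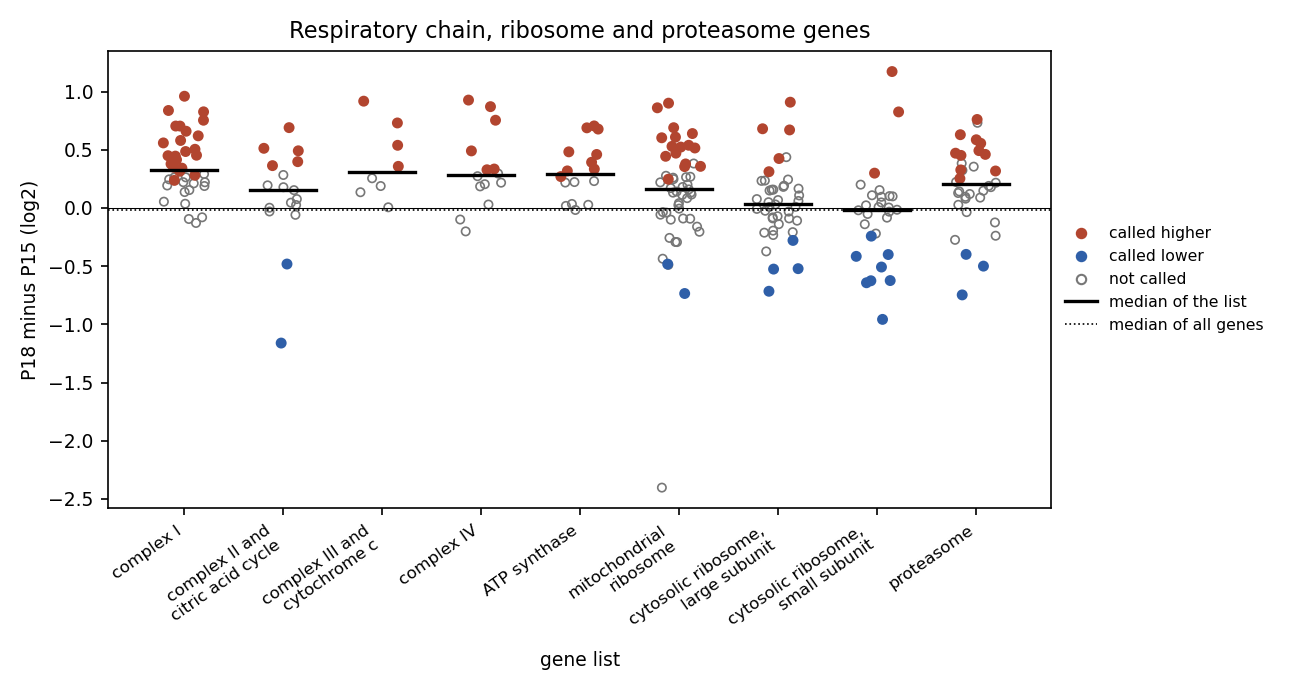
The change from P15 to P18 on the log2 scale of every tested gene in 9 lists, filled where called (red higher, blue lower) and open where not, with a bar at the list's median and a dotted line at the median of all genes. The 4 lists of complexes I, III and IV and of the ATP synthase have 0 blue points, while both lists of cytosolic ribosomal proteins lie around 0.

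These genes are bright, with a median level of 3.39, and 25% of their probes hold AATAAA, and the median change was 0.11 both over the brightest bin of all genes and over genes with such probes. The part of level and of AATAAA in the respiratory changes was not tested. The cytosolic ribosomal proteins had a median level of 5.09, and 20.3% of their probes hold AATAAA. Of 69 such genes 8 rose and 12 fell, against 14.5% and 17.4% over all genes. The median was 0.01, which ranged from -0.17 to 0.23 over the scalings. Within them RPL26, RPL37A and RPL23A rose, by 0.91, 0.67 and 0.42, and RPL17 fell by 0.72. RPS26 and RPS3A rose by 1.17 and 0.82, and RPS6 and RPS29 fell by 0.64 and 0.51.

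The lists of other mitochondrial genes had more rises than falls, against 14.5% called higher and 17.4% lower over all genes. Of 52 mitochondrial ribosomal proteins 16 rose and 2 fell, with a median of 0.16. MRPS18C, MRPL47, MRPS25 and MRPL13 rose by 0.90, 0.86, 0.61 and 0.60, and MRPL9 and MRPL32 fell by 0.73 and 0.48. MRPL18 was far lower in 2 of 4 P18 cows, with P18 at -2.36, 3.01, -3.99 and 3.06 (log2 -2.40, adjusted p = 0.263, no call). In complex II and the citric acid cycle 5 of 17 genes rose and 2 fell. The succinate dehydrogenase subunits SDHD and SDHB rose by 0.69 and 0.49 and the isocitrate dehydrogenase subunit IDH3G by 0.51. DLST, part of the oxoglutarate dehydrogenase complex, fell by 1.16, and CS, the citrate synthase, by 0.48. Among 28 genes of mitochondrial import and carriers 7 rose, with the ADP and ATP carrier SLC25A4 at 0.63, TIMM13 at 0.60 and TOMM6 at 0.61. The 1 fall was IMMT, which shapes the cristae of the inner membrane, at -1.05, -0.81, -0.98 and -0.88 in P15 and -2.68, -2.51, -2.60 and -2.28 in P18 (log2 -1.59, adjusted p = 0.000173).

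Of 29 translation initiation and elongation factors 9 fell and 1 rose, against 17.4% called lower and 14.5% higher over all genes. The balance depended on the setting, with 5 to 10 falls and 0 to 7 rises over the alternatives. Several belong to the helicase complex that opens messenger RNA for the ribosome. EIF4A1, the helicase, was at -2.89, -2.84, -3.06 and -2.89 in P15 and -4.31, -4.25, -4.11 and -4.41 in P18 (log2 -1.35, adjusted p = 0.000196). Its relative EIF4A2 fell by 0.75 and its cofactor EIF4B from -2.90 ± 0.97 to -5.0 ± 0.34, while the other cofactor EIF4H rose by 0.34. EIF4G2, a scaffold for cap-independent initiation, was at -0.97, -0.97, -0.98 and -0.95 in P15 and -2.20, -2.32, -2.15 and -2.17 in P18, a 2.37-fold fall. EIF3D, EIF3L and EIF3E, subunits of the large eIF3 complex, fell by 0.57, 0.71 and 0.37. The cap-binding protein EIF4E was at 0.30 (adjusted p = 0.181). The median of the list was -0.06, and 0.17 under median centring.

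Proteasome genes rose more often than they fell. Of 34 proteasome subunits 11 rose and 3 fell, against 14.5% called higher and 17.4% lower over all genes. Rises numbered 4 to 24 and falls 1 to 3 over the alternatives. The catalytic core subunits PSMB2, PSMB4 and PSMB6 rose by 0.76, 0.55 and 0.47, and the regulatory particle subunits PSMD6 and PSMC2 fell by 0.75 and 0.50. The ubiquitin gene UBB rose by 1.11. UBA1, the enzyme that activates ubiquitin, was at -2.07, -2.01, -2.27 and -2.29 in P15 and -3.67, -3.46, -3.69 and -3.65 in P18, a 2.75-fold fall (adjusted p = 0.000173). The conjugating enzymes UBE2T and UBE2V2 went apart, at 0.76 and -0.72, both called.

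Extracellular matrix genes fell. Of 47 tested genes 21 fell and 2 rose, against 17.4% and 14.5% over all genes, with a median of -0.39. Over the 26 alternatives falls numbered 11 to 23, the fewest with the brighter 50% of the genes, and rises 0 to 7, the most with median centring. The median was negative under every alternative, -0.17 with median centring. In bulk tissue fewer cells of a type and less RNA per cell cannot be told apart. The fibrillar collagens fell, COL1A2 by 1.27, COL1A1 by 0.93 and COL3A1 by 0.78. COL1A2 was at 0.30, 0.52, 1.13 and 1.07 in P15 and -0.08, -0.55, -0.76 and -0.69 in P18. COL1A1 kept its call in 16 of 24 alternatives. The network collagen of basement membranes COL4A1 fell by 1.04 and COL12A1 by 1.39. COL18A1 was at -0.88, -1.41, -1.41 and -1.68 in P15 and -3.20, -3.04, -3.10 and -3.31 in P18, and the days did not overlap for COL1A2 or COL18A1, but did for COL1A1 and COL3A1.

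Matrix glycoproteins and their receptors were lower too. TNC was at -2.52, -2.01, -2.72 and -2.04 in P15 and -3.78, -5.08, -4.16 and -4.66 in P18. VCAN, a large proteoglycan, fell by 0.91, FBN1, the fibrillin of elastic fibres, by 0.52, and SPARC by 0.39. The integrin subunits ITGB1 and ITGAV, receptors of fibronectin, fell by 0.86 and 0.93. Of the enzymes that build or cut the matrix, LOX was at -0.48, -0.77, -0.19 and 0.68 in P15 and -1.36, -2.18, -2.36 and -1.66 in P18. MMP14 and MMP2 fell by 0.79 and 0.73, CTSK by 0.71 and the plasminogen activator PLAU by 0.78. The 2 rises were MMP1, the interstitial collagenase, at 0.91, and the inhibitor TIMP4 at 0.56. Small proteoglycans did not pass, with DCN at -0.18 (adjusted p = 0.362), LUM at -0.02 and BGN at -0.29. TIMP2 was saturated on all 4 P15 arrays and 0 P18 arrays, so its P15 signal is a lower limit. As measured, P15 was 1.31-fold above P18 (limma adjusted p = 0.0615, no call).

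**Figure D4:**
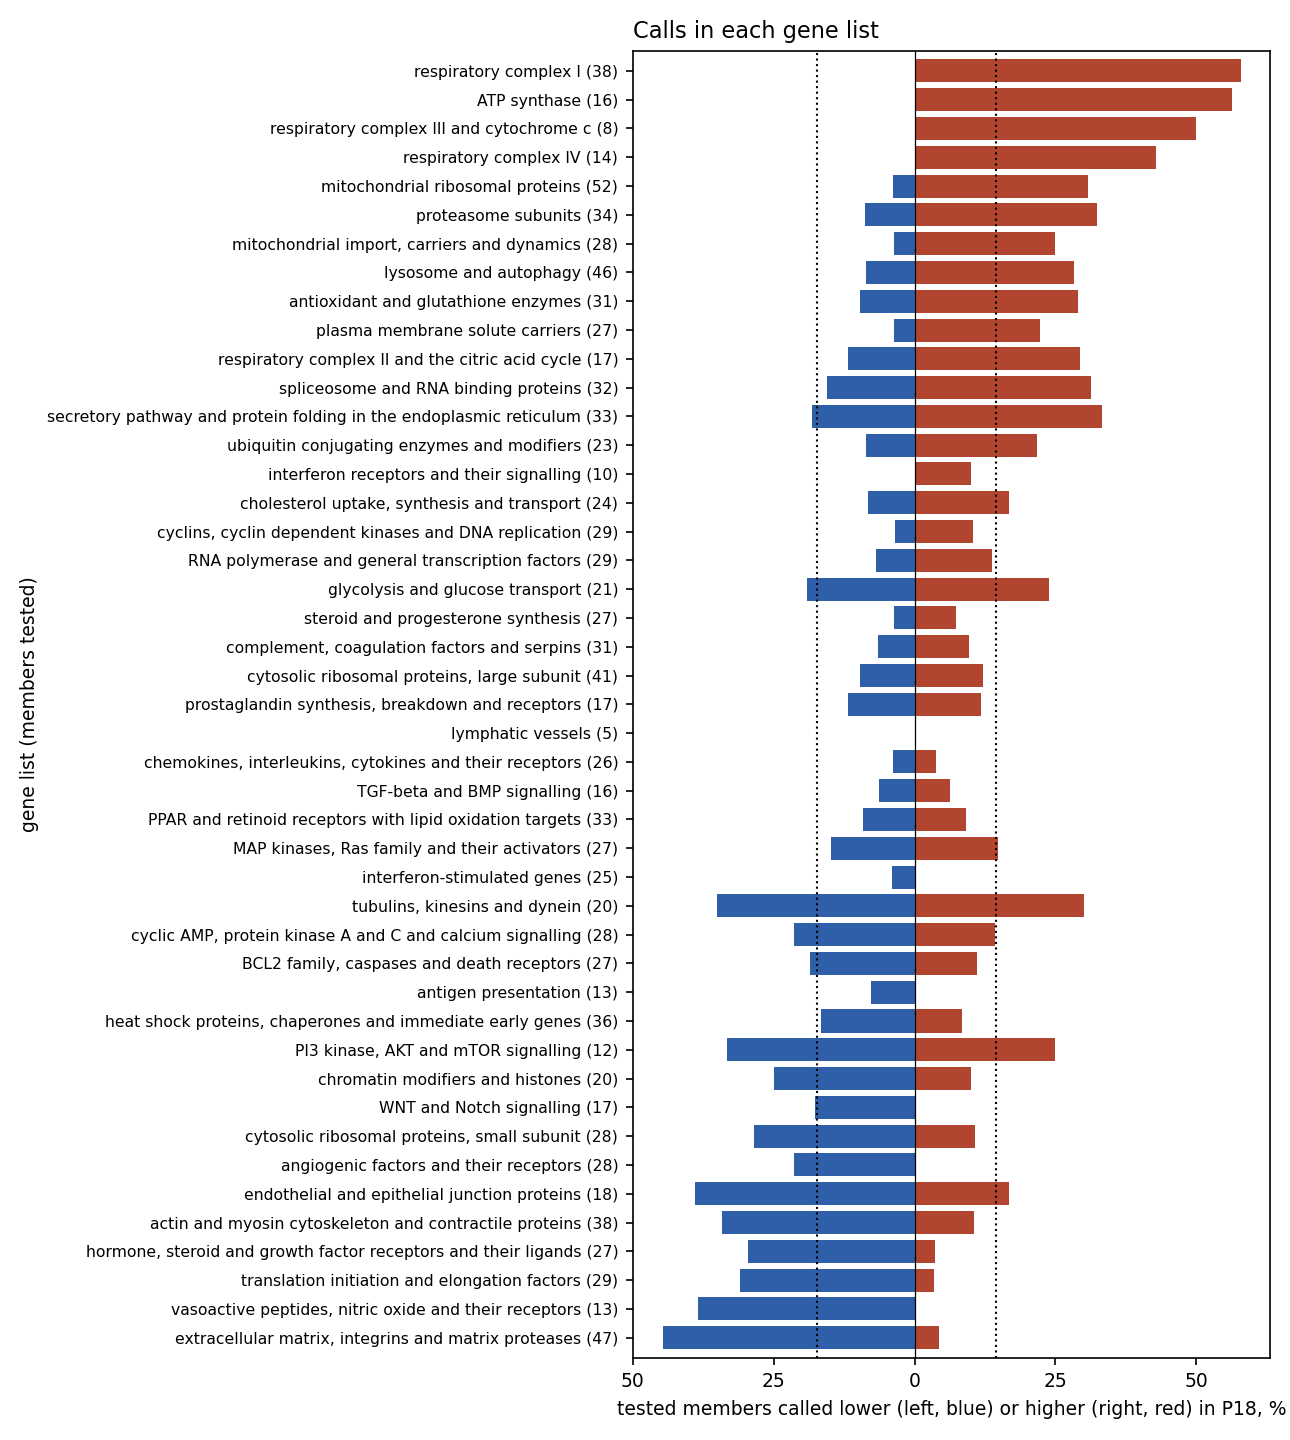
For each of 45 gene lists, the share of tested members called higher (red, right) and lower (blue, left) in P18, in percent, with the number tested in brackets and dotted lines at the shares over all genes, 14.5% and 17.4%. The lists of complexes I, III and IV and of the ATP synthase have no blue, and the matrix list has 21 of 47 called lower.

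Most vessel genes were not called. Of 28 angiogenic genes 6 fell and 0 rose, against 17.4% called lower and 14.5% higher over all genes, with a median of -0.29. Over the alternatives falls numbered 2 to 10 and rises 0 to 3. HIF1A, the oxygen-sensing subunit of hypoxia inducible factor, was at 0.60, 1.01, 0.90 and 0.88 in P15 and -0.75, -0.74, -0.76 and -0.86 in P18, with NP15 at 0.95 ± 0.20. All P18 cows were below 0 and all P15 and NP15 cows above it, a 3.08-fold fall (log2 -1.62, SE 0.10, adjusted p = 0.000142). Its relative EPAS1 fell by 0.84, and their partner ARNT was at 0.31 (adjusted p = 0.137). The growth factors PROK1 and FGF1 fell by 1.14 and 0.91. PROK1, a growth factor of endocrine endothelium, was at -0.22, -0.26, -0.51 and -0.59 in P15 and -1.45, -1.37, -1.31 and -1.99 in P18. VEGFA, a target of hypoxia signalling and the main luteal angiogenic factor, was at -0.50 by its brightest probe (adjusted p = 0.125) and at -1.01 by the other, which was called (adjusted p = 0.0148). Its receptors KDR and FLT1 were at -0.09 and 0.30, without calls. The endothelial receptors ENG and S1PR1 fell by 0.43 and 0.40, and ENG kept its call in 14 of 25 alternatives.
HIF1A: tcctatacaaggcagcagaaacctactgca

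Genes that set vascular tone had 5 falls and 0 rises among 13, against 17.4% called lower over all genes. Their falls numbered 1 to 6 with other settings, and rises 0 to 2. GUCY1A1, a subunit of the nitric oxide receptor, was at -4.16, -4.01, -3.94 and -4.10 in P15 and -4.94, -5.54, -5.22 and -5.15 in P18 (log2 -1.16, adjusted p = 0.000784). NOS3, the endothelial nitric oxide synthase, fell by 0.55 and kept its call in 18 of 26 alternatives. The angiotensin receptor AGTR1, the natriuretic peptide receptor NPR2 and the endothelin receptor EDNRA fell by 0.73, 0.72 and 0.32.

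Genes of cell contacts and the actin cytoskeleton fell more often than they rose, against 17.4% called lower and 14.5% higher over all genes. Among 18 junction genes 7 fell and 3 rose, with 2 to 8 falls and 1 to 4 rises over the alternatives. CDH5, the cadherin of endothelial junctions, was at -3.30, -3.01, -3.36 and -2.89 in P15 and -4.18, -4.37, -4.33 and -4.5 in P18 (log2 -1.21, adjusted p = 0.000692). PECAM1, an adhesion molecule of the same cells, was at -3.21, -3.15, -3.62 and -3.03 and -4.18, -4.17, -4.54 and -4.39. F11R fell by 1.21, CTNNB1, the cadherin partner beta-catenin, by 1.0, and CLDN3 by 0.90, while CLDN7 and CLDN4 rose by 1.13 and 0.76. Of 38 actin and myosin genes 13 fell and 4 rose, with a median of -0.27. ACTA2 was at 0.93, 0.60, -0.28 and 1.29 in P15 and -1.30, -0.99, -0.88 and -1.04 in P18, with no overlap. VIM, the intermediate filament of mesenchymal cells, was at 4.39, 4.13, 4.66 and 4.26 in P15 and 3.21, 3.08, 3.51 and 2.68 in P18. The focal adhesion protein ZYX fell by 0.61, the myosin MYH10 by 0.99, and the filament-severing CFL1 by 0.76, and ARPC3, part of the complex that branches actin, rose by 0.90. Tubulins and motors were split, with 6 rises and 7 falls among 20. TUBA1A and TUBB fell by 1.0 and 0.83, and the dynactin subunit DCTN3 rose by 0.50. KLC4, another kinesin light chain, fell by 1.15 while KLC3 rose.

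Markers of cell types were read from lists of textbook genes. Over all genes 14.5% were called higher and 17.4% lower, and the groups did not overlap in 34.4%. All 9 luteal markers were above background on all 8 arrays, with a median level of 3.81; 1 rose, HSD3B1, and 3 fell, SCARB1, NR5A1 and INHA. Their mean level was 3.76, 3.80, 3.35 and 3.02 in P15 and 3.15, 3.18, 3.24 and 3.16 in P18, with overlap. Endothelial markers fell in 2 of 7 genes, CDH5 and PECAM1. The other 5 had negative changes without calls, such as ESAM at -0.36 (adjusted p = 0.0749), TIE1 at -0.51 and TEK at -0.20. Their mean level was -0.48, -0.43, -0.44 and -0.40 in P15 and -0.84, -0.82, -1.08 and -1.09 in P18, without overlap. Fibroblast markers fell in 3 of 5, the 3 fibrillar collagens described with the matrix genes above. The other 2, DCN at -0.18 and LUM at -0.02, were not called. The mean level of the 5 was 2.47, 2.59, 2.81 and 2.95 in P15 and 2.39, 2.02, 1.92 and 1.94 in P18, without overlap. The defining fibroblast marker PDGFRA was above background on 4 P15 arrays and 1 P18 array, and VWF of endothelium on 4 and 3. Detection was lower in P18 over all probes too, with 78.4% well above background in P15 and 70.4% in P18. Of 5 pericyte and smooth muscle markers, ACTA2 and NOTCH3 fell, NOTCH3 by 0.40 with its call kept in 16 of 26 alternatives. DES at -0.24, CNN1 at -0.24 and RGS5 at -0.06 were not called, but the other RGS5 probe was at -0.95 and called (adjusted p = 0.00129). The part of these markers in the matrix and vessel results was not tested.

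Calls among blood cell markers differed between short lists, from 0 of 6 myeloid to 3 of 3 neutrophil and mast cell markers. Over all genes 14.5% were called higher and 17.4% lower, and 43.5% had an unadjusted p under 0.05. The groups did not overlap in 34.4% of all genes. Of 6 myeloid markers 5 had positive changes and limma called 0 at an adjusted p under 0.05, with 1 at an unadjusted p under 0.05. CD68 was at 0.99 (adjusted p = 0.0639), TYROBP at 0.52 and CD14 at 0.51. The neutrophil and monocyte calcium-binding proteins S100A8 and S100A12 rose. S100A8 was at -3.23, -2.72, -3.58 and -2.18 in P15 and -1.99, -2.40, -1.03 and -1.64 in P18, with overlap, and kept its call in 17 of 24 alternatives, and S100A12 was at 0.93 (adjusted p = 0.021). KIT, a mast cell receptor, fell by 0.92 and kept its call in 12 of 25. T and natural killer cell markers had 0 calls by limma, and 0 at an unadjusted p under 0.05, but only 5 of 9 were tested. Of those not tested, CD3G was above background on 4 P15 arrays and 1 P18 array and CD3D on 3 and 1. NKG7 was above it on 4 and 3, and CD4 on 1 and 0. Such counts are read against all probes, of which 78.4% were well above background in P15 and 70.4% in P18. GZMB, a granule protease of killer cells, was at -4.60, -3.73, -3.52 and -3.31 in P15 and -5.71, -4.17, -2.03 and 1.07 in P18, where replicate 4 stood far above the others. The GZMB difference was 1.08 over all cows and -0.18 without that cow. CD2, CD8A and CD247 were at -0.10, -0.24 and 0.07, and CD8A was at 0.29 without P18 replicate 1. Of the B and plasma cell markers, CD79A was at -0.26 and JCHAIN at 1.0, without calls. The red cell gene ALAS2 rose by 0.54, while the haemoglobin probes were above background on 0 P15 arrays, and on 1 P18 array for HBA and 0 for HBB. None of the 4 trophoblast markers on the array, PAG2, CSH2, PRP1 and CDX2, was above background on all 8 arrays. The follicle marker WT1 fell by 0.49 and kept its call in 16 of 25 alternatives, and FOXL2 and FSHR were at -0.02 and 0.01. The nerve and adrenal medulla markers S100B, CHGB and TH were at 0.70, 0.77 and 0.24, without calls. The mean level of the 4 tested genes of that list was 0.03, 0.36, 0.20 and 0.30 in P15 and 0.68, 0.74, 0.60 and 0.72 in P18, without overlap. Its members CHGA and DBH were not tested. CHGA was above background on 4 P15 arrays and 0 P18 arrays, and DBH on 3 and 0. The part of these markers in other results was not tested.

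Interferon-stimulated genes, which type I interferons induce, varied widely between cows. Of 25 tested genes limma called 0 higher and 1 lower at an adjusted p under 0.05, with 5 at an unadjusted p under 0.05. Over all genes 14.5% were called higher, 17.4% lower, and 43.5% had an unadjusted p under 0.05. The median change of the list was 0.26. ISG15, a ubiquitin-like modifier, was at -0.52, -1.09, 1.78 and 3.06 in P15 and 2.33, 2.94, 5.44 and 2.48 in P18 (log2 2.49, SE 1.03, adjusted p = 0.0972). P15 replicate 4 overlapped the P18 cows, and P18 replicate 3 was highest of all. MX1, an antiviral GTPase, was at 0.91, 1.05, 2.76 and 3.53 in P15 and 3.28, 3.37, 5.27 and 2.51 in P18 (adjusted p = 0.142). USP18, which removes ISG15 from proteins, was at -2.50, -2.60, -1.77 and -0.42 in P15 and -1.30, -1.44, 1.59 and -1.37 in P18. MX2, DHX58 and IRF9 were at 0.99, 1.24 and 1.02, without calls. The mean level of the list was -1.50, -1.62, -0.76 and -0.31 in P15 and -1.11, -1.05, 0.71 and -0.89 in P18, and the days overlapped. LGALS3BP, a bright secreted member, was at 0.33 (adjusted p = 0.0579). The 1 called gene was UBA7, the enzyme that activates ISG15, which fell by 0.85.

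**Figure D5:**
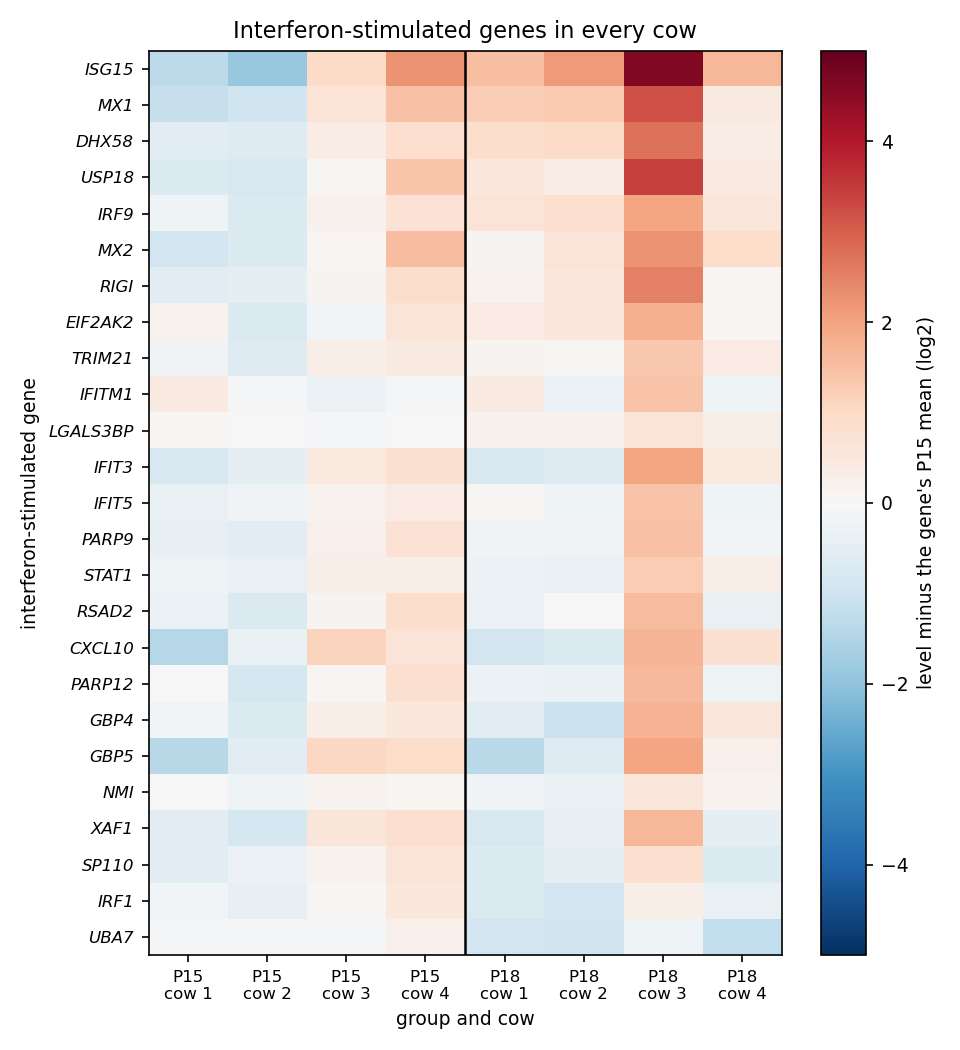
Level of each of 25 interferon-stimulated genes in each of the 8 cows, as the log2 difference from the gene's P15 mean (red above, blue below). P18 cow 3 has the deepest red, in ISG15, and P15 cow 4 is red for most genes.

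Of the receptors and signalling genes of interferons, 1 of 10 was called, STAT6, which mainly serves interleukin 4, at 0.53. The receptor subunits IFNAR2 and IFNGR1 were at -0.39 (adjusted p = 0.0521) and -0.57 (adjusted p = 0.0601), and PTPN1 at -0.25 (adjusted p = 0.0503). The other IFNGR1 probe, less bright, was at -0.73 and called (adjusted p = 0.0423). Among 26 chemokines, cytokines and receptors LTA rose and LIFR, a receptor of leukemia inhibitory factor, fell by 0.85. CXCL12 was at -0.65 (adjusted p = 0.0753) and TNFRSF1B at -0.31 (adjusted p = 0.0794). In the antigen presentation list CD40, a receptor on antigen-presenting cells, fell by 0.59 and kept its call in 11 of 25 alternatives. BOLA-DOB, ERAP2 and IFI30 were at 0.32, -0.32 and 0.52, without calls. Lymphatic genes had 0 calls by limma among 5, with 1 at an unadjusted p under 0.05. CCL21, the chemokine of lymphatic endothelium, was at 1.48, 0.53, 1.80 and -5.09 in P15 and 2.71, 2.51, 2.48 and 1.75 in P18 (log2 2.68, adjusted p = 0.168), where P15 replicate 4 was far below the other P15 cows. LYVE1, VEGFC and PDPN were at 0.48, -0.37 and 0.21. Of the complement, coagulation and serpin genes 3 of 31 rose and 2 fell, against 14.5% and 17.4% over all genes. The fibrinogen chain FGB rose by 1.03 from a dim level of -6.29 ± 0.39, the complement regulator CD46 by 0.44, and the protease C1S fell by 0.86.

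Chaperones and the secretory pathway held changes in both directions. Of 36 heat shock, chaperone and immediate early genes 6 fell and 3 rose, against 17.4% and 14.5% over all genes. HSPA5, the main chaperone of the endoplasmic reticulum, was at 1.72, 1.86, 1.2 and 1.82 in P15 and 0.87, 0.36, 0.63 and 0.74 in P18 (log2 -1.0, adjusted p = 0.00364). HSPB8 and DNAJA2 fell by 1.35 and 0.97, and DNAJB4 rose by 0.76. JUN fell by 1.12, while FOS was at -0.98 (adjusted p = 0.54). In the secretory pathway 11 of 33 rose and 6 fell. Parts of the machinery that feeds proteins into the endoplasmic reticulum rose, with SRP54 at 1.24, SEC62 at 1.13 and DAD1 at 0.86, the last in row 192. SEC31A, a coat protein of vesicles that leave it, fell by 0.85. In lysosomes and autophagy 13 of 46 rose and 4 fell. The autophagosome proteins GABARAPL2 and GABARAP rose by 0.64 and 0.55. PSAP, the precursor of sphingolipid activators, fell by 1.19 and the protease ATG4B by 0.68.

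Metabolic enzymes were divided. In glycolysis and glucose transport 5 of 21 rose and 4 fell, against 14.5% and 17.4% over all genes. GPI and LDHA, at the start and end of anaerobic glycolysis, fell by 0.51 and 0.71. Of the antioxidant genes 9 of 31 rose and 3 fell. GSTA4, which clears lipid peroxidation products, rose by 0.67, GPX4, which reduces lipid peroxides, by 0.48, and KEAP1 by 0.37. GLRX was called at 0.67 with a marked spot on P15 replicate 3 left out, and with that spot kept it was at -0.29 without a call. Plasma membrane carriers had 6 rises and 1 fall among 27. SLC6A9, SLC38A3, SLC26A2 and SLC7A2 rose by 0.85, 1.0, 0.72 and 0.74.

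Genes of cell death and division had calls in both directions. Of 27 genes of cell death 3 rose and 5 fell, near the 14.5% and 17.4% over all genes. Among them members of both sides of the BCL2 family fell, the protective BCL2L1 and BCL2L2 by 0.56 and 0.76 and the death effector BAX by 0.41, as did the kinase RIPK1 by 1.16 and the nuclease DFFB by 0.58. In the cell cycle list 3 of 29 rose, with RFC5, MCM7 and CCNC at 0.80, 0.58 and 0.39, and RRM1 fell by 0.32 and kept its call in 11 of 26 alternatives.

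In signalling, 4 of 28 genes of cyclic AMP, kinase and calcium signalling rose and 6 fell, against 14.5% and 17.4% over all genes. The G protein GNA11, which couples the F2alpha receptor to phospholipase C, fell by 1.06, and the calcium channel ITPR3 by 1.34, from -1.81, -1.55, -1.50 and -1.33 in P15 to -2.55, -2.82, -3.21 and -2.96 in P18. PRKACA, a catalytic subunit of protein kinase A, rose by 0.52. The MAP kinase and Ras list had 4 rises and 4 falls among 27, with rises of 0.79 in RPS6KA3 and 0.90 in MKNK1, whose probe is in row 192, and changes of -1.0 in MAP2K6 and -1.53 in RHOB. In the PI3 kinase list AKT1 and PIK3CA fell by 0.59 and 0.60, and MLST8 and GSK3A rose by 0.87 and 0.41. In TGF-beta signalling SMAD4 rose by 0.40 and ENG fell, and ID4 and ID3 were at -0.69 and 0.34, without calls. The Notch target HEYL fell by 0.71, and HES1 was at 0.44 (adjusted p = 0.0841).

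In the nucleus, 10 of 32 splicing genes rose and 5 fell, against 14.5% called higher and 17.4% lower over all genes. Over the alternatives their rises numbered 5 to 17 and their falls 0 to 5. The core particle proteins SNRPD1 and SNRPD3 rose by 0.53 and 0.44 and LSM3 by 0.86. Of 29 genes of RNA polymerase and general transcription factors 4 rose and 2 fell, a smaller called share than the 31.8% over all genes. The rises were POLR2J by 0.72, POLR2I by 0.61, GTF2H5 by 0.78 and MED27 by 0.29. The falls, named after their values were seen, were POLR3K by 0.66 and ELOC by 0.25, whose calls held in 12 of 25 and 9 of 24 alternatives. HDAC1, a histone deacetylase, was at -0.31, 0.15, -0.10 and -0.22 in P15 and -1.44, -1.28, -1.39 and -1.22 in P18 (log2 -1.21, adjusted p = 0.000522), and HDAC3 fell by 0.51. The histone variant H2AZ1 rose by 0.98.

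How far a single probe stands for its gene could be read from genes with several probes. Of 118 genes with kept probes of different sequence, 63 had at least 1 probe called. In 11 of these all probes were called in 1 direction, in 50 some were called and others not, and in 2 probes were called in opposite directions. The median gap between probes of a gene was 0.31 on the log2 scale. The 2 opposed genes were the ribosomal protein RPS12 and the membrane metalloproteinase MMP15. RPS12 was at -0.96 by its brightest probe, of row 35, and at 0.56 by that of row 177, so no direction is given. By the brightest probe it counts among the falls of the small subunit list. MMP15 was at 0.80 by the probe of row 34 and -0.65 by that of row 73. The strand that the probes of RPS12 and MMP15 read was not tested. Stretches of 30 bases of each MMP15 probe are shown, since the direction rests on the choice between them.
MMP15, probe of row 34: aagcccatcagtgtctggcaggggatccct
MMP15, probe of row 73: tcagtgtctgtaaataatctgcactgatta

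GAPDH, a glycolytic enzyme often taken as a constant, gave a check of position, since 1 of its probe sequences is printed on 100 spots across the array. By these spots the change had a median of 0.74 and an SD of 0.14 over spots. The lowest spot, in row 185, was at -0.40, and the other 99 lay between 0.56 and 1.33, the highest in row 192. The spots share their RNA and are not replicates. By 2 other GAPDH sequences the change was 0.37 (row 1, the brightest probe, called) and 0.21 (row 124, not called). All 3 medians or values were positive, and they ranged from 0.21 to 0.74. The first 30 bases of the first pair and the last 30 of the third are shown because they are named for 1 gene and gave different sizes of change.
GAPDH, 100 spots: tgagatcaagaaggtggtgaagcaggcgtc
GAPDH, probe of row 1: tcgatgctggggctggcattgccctcaacg
GAPDH, probe of row 124: gagccgcaccttgtcatgtaccatcaataa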

How the data were processed

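RNA of 12 corpora lutea was measured on 12 arrays, and the 8 arrays of P15 and P18 were compared. Per the labels, RNA was isolated with a column kit and labelled with Cy3. Per the file headers, the deposited processed intensity was background-subtracted by Agilent Feature Extraction (9.5 per the submitters' processing notes) and not scaled between arrays. The authors' deposited log2 table, with a scaling that no source used here states, differed from log2 processed intensity by 1 constant per array, had medians from -3.32 to -2.99 and served as an alternative.

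Control spots and spots marked as outliers were left out. Levels are log2 intensity minus the array's 75th percentile over 15208 probes. Probes well above background on all 8 arrays were kept (9863), spots of identical sequence averaged, and the brightest probe of a gene used. Changes were tested with limma 3.58.1 (R 4.3.3) without a block, with Benjamini-Hochberg adjustment over 9583 genes at 0.05. Probes were named from the files through RefSeq of ARS-UCD2.0, and 7149 of 15208 received a symbol; printed sequences are the files' probes. On data simulated with 200 of 9577 genes changed, the test recovered 27%, 75.5% and 96.5% of changes of log2 0.5, 1 and 2. The adjusted p depends on how many genes change, and 3051 were called in the real data. The simulated shares therefore do not give the recovery in the real data. Replicate numbers did not pair the cows.

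The genes and lists were chosen with earlier results of these data known. By rule the text names both title genes, the 15 largest rises and falls, up to 4 members of each list with the smallest p, and members needed to order a pathway (a few that the rule names are not reported here); those last ones were chosen with their values known. The number of arrays limits the precision, and p-values measure the spread between 4 cows per day.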

Additional observations from a re-analysis of the deposited data

Results flagged for a closer look

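Among the genes named, 1 cow stood apart from the other 3 of its day in 43 of 607 groups examined, with a gap past Dixon's 95% critical value, which chance passes in about 1 of 20 groups. P15 replicate 4 was the cow concerned in 9 of them and P18 replicates 3 and 4 in 7 each. AKT1 was at -2.10 in P18 replicate 3, against -1.68 to -1.62 in the other cows of that day. CD14 was at -1.94 in P15 replicate 4, against -3.21 to -3.12 in the other cows of that day. CD247 was at 0.19 in P18 replicate 4, against -0.71 to -0.57 in the other cows of that day. CD40 was at -3.77 in P18 replicate 3, against -4.58 to -4.5 in the other cows of that day. CD46 was at -0.90 in P18 replicate 2, against -0.64 to -0.61 in the other cows of that day. COL1A1 was at -1.33 in P18 replicate 1, against -2.18 to -2.06 in the other cows of that day. CTSK was at 0.96 in P18 replicate 1, against 0.74 to 0.77 in the other cows of that day. DYSF was at -2.40 in P15 replicate 1, against -2.84 to -2.82 in the other cows of that day. EIF4A2 was at -0.79 in P18 replicate 4, against -0.52 to -0.48 in the other cows of that day. EIF4H was at 2.51 in P15 replicate 4, against 2.71 to 2.74 in the other cows of that day. FOS was at 0.06 in P18 replicate 2, against -2.71 to -2.31 in the other cows of that day. GABARAPL2 was at 4.45 in P18 replicate 2, against 4.28 to 4.31 in the other cows of that day. HIF1A was at -0.86 in P18 replicate 4, against -0.76 to -0.74 in the other cows of that day. HSD17B4 was at 1.85 in P15 replicate 3, against 1.66 to 1.68 in the other cows of that day. HSD17B4 was at 1.82 in P18 replicate 1, against 2.01 to 2.04 in the other cows of that day. HSPB8 was at 0.97 in P15 replicate 4, against 0.12 to 0.24 in the other cows of that day. ID4 was at -3.05 in P18 replicate 4, against -2.41 to -2.38 in the other cows of that day. IGF2 was at 0.06 in P15 replicate 4, against 0.22 to 0.24 in the other cows of that day. KIF20A was at -3.61 in P18 replicate 4, against -5.22 to -4.97 in the other cows of that day. LGALS3BP was at 6.05 in P18 replicate 3, against 5.60 to 5.67 in the other cows of that day. LIFR was at 0.31 in P15 replicate 2, against 0.78 to 0.87 in the other cows of that day. LSM3 was at 0.94 in P18 replicate 3, against 0.65 to 0.69 in the other cows of that day. MCM7 was at 0.22 in P15 replicate 1, against 0.54 to 0.60 in the other cows of that day. MMP14 was at -3.89 in P15 replicate 4, against -4.39 to -4.31 in the other cows of that day. MRPL13 was at 2.38 in P18 replicate 3, against 2.17 to 2.20 in the other cows of that day. MRPL47 was at 0.18 in P18 replicate 1, against 0.45 to 0.49 in the other cows of that day. NDUFB3 was at 1.64 in P15 replicate 1, against 1.48 to 1.49 in the other cows of that day. NDUFV1 was at 3.70 in P15 replicate 2, against 3.56 to 3.59 in the other cows of that day. OXT was at 5.0 in P18 replicate 4, against 5.72 to 5.85 in the other cows of that day. PAQR7 was at -3.63 in P18 replicate 4, against -2.81 to -2.67 in the other cows of that day. PDPN was at 3.45 in P18 replicate 3, against 2.82 to 2.90 in the other cows of that day. PMVK was at 1.54 in P18 replicate 2, against 1.87 to 1.89 in the other cows of that day. POLR2J was at -0.02 in P15 replicate 1, against -0.21 to -0.18 in the other cows of that day. PRKACA was at 1.36 in P15 replicate 4, against 1.6 to 1.64 in the other cows of that day. PSMC2 was at -1.29 in P18 replicate 1, against -1.13 to -1.10 in the other cows of that day. PTPN1 was at 0.50 in P15 replicate 1, against 0.67 to 0.69 in the other cows of that day. RARA was at 0.33 in P15 replicate 4, against 0.52 to 0.54 in the other cows of that day. RPS12 was at -3.31 in P15 replicate 2, against -3.13 to -3.11 in the other cows of that day. SDHB was at 0.58 in P15 replicate 1, against 0.81 to 0.84 in the other cows of that day. TIMM13 was at 2.31 in P15 replicate 4, against 2.00 to 2.04 in the other cows of that day. UBA1 was at -3.46 in P18 replicate 2, against -3.69 to -3.65 in the other cows of that day. UBA7 was at -0.48 in P15 replicate 4, against -0.86 to -0.82 in the other cows of that day. USP18 was at 1.59 in P18 replicate 3, against -1.44 to -1.30 in the other cows of that day.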

How the results depend on the processing

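Over 26 alternatives, 0 of the 3051 called genes were called in the opposite direction. Without a filter on dim probes 5557 genes were called, 3396 of them higher and 2787 at least 2-fold. In the brighter 50% of the genes 1476 were called, 903 higher and 573 lower, with 61 at least 2-fold. Median centring gave 2968 higher and 896 lower. Normexp left 196 genes at least 2-fold, and a filter of 3 of 4 arrays gave 984. Leaving out each array in turn gave 2277 to 2868 calls. The deviations of same-numbered cows from their group means correlated at 0.22, -0.06, -0.08 and 0.11, and with the replicate number as a block 2505 genes were called. With the 75th percentile over probes above background on all 8 arrays, ATP5F1A was at -0.0331, ATP5F1B at -0.0404, CD247 at -0.00043, CYP11A1 at -0.0577, FSHR at -0.0578, NDUFS1 at -0.0134 and UQCRC2 at -0.0618. With array weights, FDX1 was at 0.0611 and UQCRC2 at -0.031. With cyclic loess, ATP5F1A was at -0.14, ATP5F1B at -0.0969, CD2 at 0.14, CYP11A1 at -0.18, NDUFS1 at -0.0434, NDUFV2 at -0.0266, PGR at 0.0623 and UQCRC2 at -0.10. With local position adjustment, ATP5F1B was at -0.0269 and FDX1 at 0.0189. With marked spots kept, GLRX was at -0.29. With the mean of a gene's probes, MMP15 was at 0.0744. With median centring, CD2 was at 0.13, DCN at 0.0427, FDX1 at 0.22, FOXL2 at 0.20, KDR at 0.14, LUM at 0.20, NR5A2 at 0.0854, PGR at 0.0568, RGS5 at 0.17 and TEK at 0.028. With negative control signal subtracted, FSHR was at -0.0711. With normexp background correction, CD2 was at 0.0563 and UQCRC2 at -0.0017. With quantile normalization, APOA1 was at 0.00227, ATP5F1A at -0.0249, ATP5F1B at -0.12, CD2 at 0.14, NDUFS1 at -0.10, PGR at 0.0202, STAR at 0.0336 and UQCRC2 at -0.18. With 1 array left out at a time, CD247 ranged from -0.15 to 0.32, CD8A -1.07 to 0.29, CYP11A1 -0.0373 to 0.0627, CYP21A2 -0.52 to 0.14, FDX1 -0.0907 to 0.0884, FOXL2 -0.11 to 0.0557, FSHR -0.21 to 0.16. In the same way, GZMB ranged from -0.18 to 2.08, KDR -0.21 to 0.029, LUM -0.15 to 0.0493, PPARG -0.0277 to 0.29, PRLR -0.27 to 0.55, RGS5 -0.15 to 0.11 and UQCRC2 -0.0882 to 0.0921. Of 231 called genes named, 168 kept the call in every alternative that tested them, and 3 (APOA1, GLRX and MMP15) changed sign in 1. Of the 73 named genes that were not called, 36 were called in at least 1 alternative and 24 changed sign. Calls held in the fewest alternatives, of those named without such a count above, were ACVR1B (12 of 25), TIMP4 (12 of 25), BAX (13 of 25), EDNRA (13 of 25), VCAN (13 of 25), APOA1 (14 of 26), and MRPL32 (14 of 25). They were followed by INSR (16 of 25), ACVR1 (17 of 25), CS (17 of 24), FBN1 (17 of 25), PMVK (17 of 25), ABCA1 (18 of 25), MMP15 (18 of 26). The cause of these changes was not tested.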
